A study of Mus musculus with 24 samples.

Results

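The genes described here are the 3 uncoupling protein genes, Ucp1, Ucp2 and Ucp3, and 7 genes of creatine handling: the creatine kinases Ckb, Ckmt1 and Ckmt2, the synthesis enzymes Gatm and Gamt, the creatine transporter Slc6a8 and the phosphatase gene Alpl. They were taken by symbol, and 10 of 10 were found among the 19015 genes measured. No cut on their values was used, although the set was chosen with earlier results of these data known. RNA was sequenced from female mice aged 12 weeks, either wildtype (WT) or knockout for Prxl2a (KO), a gene that encodes a peroxiredoxin-like protein. Liver, brain and the 2 fat depots, inguinal adipose tissue (IAT) and dorsal brown adipose tissue (BAT), gave 3 WT and 3 KO libraries each, which makes 24 libraries in 8 groups. In every group the mice had been fed normally and had their blood washed out by perfusion with PBS. The sources used here do not name the strain, how the knockout was made or whether a replicate number marks 1 mouse in several tissues.

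Uncoupling proteins are carriers of the inner mitochondrial membrane. UCP1 lets protons flow back into the matrix of brown fat mitochondria, so that respiration yields heat in place of ATP. UCP2 is found in many tissues and UCP3 mainly in muscle and brown fat, and their transport roles are less settled. Creatine is made from arginine and glycine by GATM, which forms guanidinoacetate, and GAMT, which methylates it. SLC6A8 carries creatine into cells, and creatine kinases pass phosphate between ATP and creatine in the cytosol (CKB, and CKM in muscle) or at the mitochondrial membrane (CKMT1, and CKMT2 in muscle). In thermogenic fat a futile cycle has been described in which creatine is phosphorylated and phosphocreatine is hydrolysed again, and CKB and ALPL, the tissue-nonspecific alkaline phosphatase, have both been assigned to it.

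Library totals ran from 12327459 to 18257788 counts. Prxl2a lay lower in every KO library than in every WT library of its tissue, at 11.3 to 24.4 against 350 to 554 TPM (transcript abundance corrected for length and library size) in IAT (edgeR adjusted p = 0.0912, and under 0.05 in the other 3 tissues), 17.97 to 24.2 against 494 to 525 TPM in BAT, 9.36 to 11.4 against 146 to 212 TPM in brain and 0.99 to 2.24 against 75.3 to 91.8 TPM in liver. Defining markers followed the tissue labels, with Cidea at 3488 to 4577 TPM in BAT and 13.6 to 101 TPM in IAT, Hoxc9 at 5.66 to 12.7 TPM in IAT and 0 in BAT, Snap25 at 2851 to 4041 TPM in brain, and Alb at 76959 to 104739 TPM in liver. Some libraries stood apart within the fat depots. The 12 skeletal muscle markers summed to 1950 and 6860 TPM in IAT WT replicates 1 and 2 and to 2659 TPM in BAT WT replicate 1, against 61.4 to 295 TPM in the other 9 fat libraries. The 12 lymphocyte markers summed to 2432 and 1211 TPM in IAT KO replicates 1 and 3, against 4.39 to 21.4 TPM in the other 10 fat libraries. Macrophage markers summed to 2260 to 8044 TPM in the IAT WT libraries and to 1466 to 3100 TPM in the IAT KO libraries, and the 5 stroma markers to 2043 to 3556 and 1267 to 2194 TPM. Brain libraries varied as well, given here for WT and then KO replicates 1 to 3. Oligodendrocyte markers summed to 4913, 6383 and 2462 TPM and to 5095, 4023 and 6012 TPM. Striatum markers summed to 834, 779 and 185 TPM and to 147, 699 and 188 TPM. Choroid plexus markers summed to 115, 266 and 2191 TPM and to 627, 15.8 and 300 TPM.

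Levels in WT mice came first. In each tissue a different gene of the set led: Ucp1 in BAT, Ucp2 in IAT, Ckb in brain and Gamt in liver. Levels are given in TPM, which corrects for transcript length and can be compared between genes, while differences between tissues were tested on counts with edgeR over the 12 WT libraries. With a call set at an adjusted p under 0.05, 10 of 10 genes differed among the 4 tissues, where 96.1% of the 15810 genes tested did. For Ckmt2, carried by 3 muscle-rich libraries, the call was narrow (edgeR adjusted p = 0.0394) and was lost without IAT WT replicate 1 (edgeR adjusted p = 0.0550), without any 1 brain or liver library (edgeR adjusted p = 0.0567 to 0.113) and with DESeq2 (adjusted p = 0.194), limma-voom (adjusted p = 0.378) and limma on log2(TPM + 1) (adjusted p = 0.247). Scaling mattered for tests against liver. With library totals in place of TMM factors, the median log2 difference over all genes went from 0.09 to 1.27 for brain minus liver, from 0.13 to 1.17 for IAT minus liver and from 0.11 to 0.90 for BAT minus liver. The share of called genes that lay higher outside liver then went from 52.0% to 75.4%, from 54.1% to 85.5% and from 54.8% to 79.8%, respectively. Between the fat depots the same change moved the median of IAT minus BAT from 0.04 to 0.30 and the share higher in IAT from 53.1% to 69.8%, and for BAT minus brain it moved the median from -0.02 to -0.41 and the share higher in BAT from 48.9% to 38.6%.

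**Figure D1:**
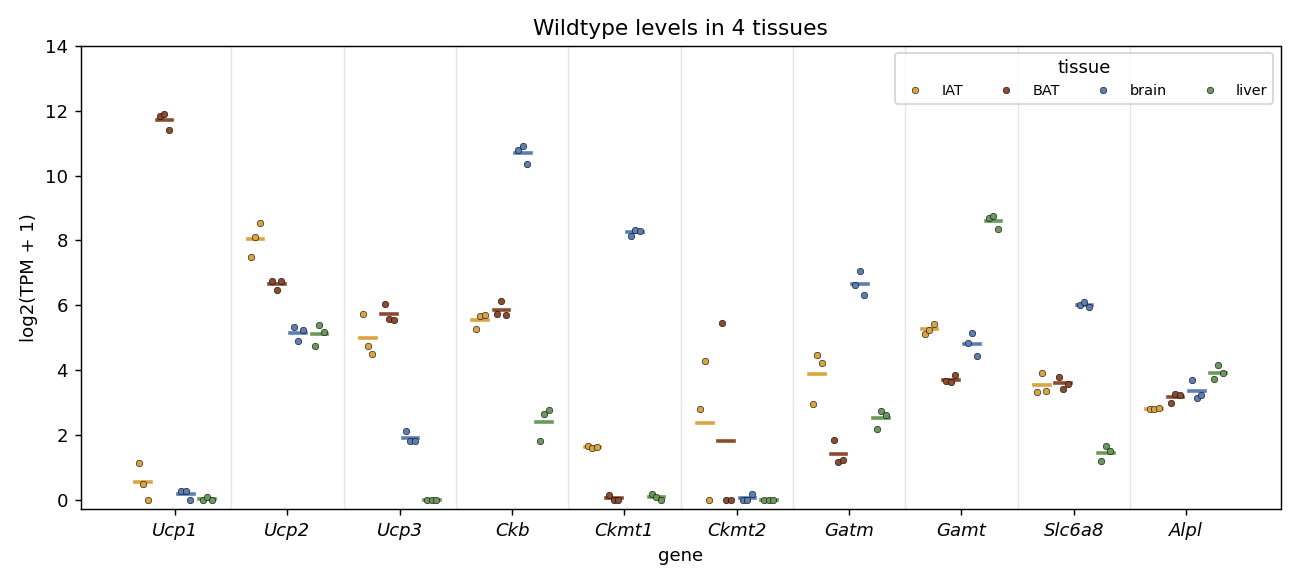
Levels of the 10 genes in the 12 WT libraries as log2(TPM + 1), with 1 point per library, colours for the 4 tissues and a bar at the mean of the log values. Ucp1 stands high in BAT alone, Ckb and Ckmt1 in brain, and Gamt in liver, while Ckmt2 is scattered within the fat depots.

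Ucp1 (gene 22227, chromosome 8, 83290348 to 83298456, plus strand, GRCm38.p6) was the 43rd most abundant of the 19015 genes in WT BAT. Its levels there were 3679, 3788 and 2710 TPM. In WT IAT it stood at 1.19, 0.38 and 0 TPM, which rests on 23 counts over the 3 libraries, and the brain and liver groups held 4 counts and 1 count. BAT lay 13.11 log2 units above IAT (SE 0.60, edgeR adjusted p = 8.20e-08, where 57% of genes tested differed between the depots), and the groups did not overlap. Ucp1 in IAT was so low that its order against brain was not resolved: the difference of 2.48 (SE 1.11, edgeR adjusted p = 0.0577) passed without IAT WT replicate 3 (3.06, edgeR adjusted p = 0.00480), and its adjusted p over 22 alternatives ran from 0.00480 to 0.407. The 8 brown adipocyte markers, Ucp1 not among them, summed to 17610 to 21284 TPM in WT BAT and to 287 to 775 TPM in WT IAT. In bulk tissue, fewer cells of a type and less RNA per cell cannot be told apart.

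Ucp2 (gene 22228, chromosome 7, 100493337 to 100499629) and Ucp3 (gene 22229, chromosome 7, 100472991 to 100486432) are neighbours on the plus strand, with 6904 bases and no annotated gene between them, and their WT levels took different orders over the tissues. Ucp2 was highest in IAT, at 178, 273 and 373 TPM, followed by BAT at 105, 87.1 and 106 TPM. Macrophage markers summed to 2260, 6286 and 8044 TPM in the same IAT libraries and to 181 to 582 TPM in WT BAT, and their part was not tested. IAT exceeded BAT by 1.05 log2 units (SE 0.24, edgeR adjusted p = 0.00302), and BAT exceeded brain by 2.70 (SE 0.26, edgeR adjusted p = 1.38e-06, where 79.2% of genes differed), or by 1.49 on log2(TPM + 1). In brain Ucp2 stood at 28.6 to 39.1 TPM and in liver at 25.9 to 40.9 TPM, so these groups overlapped on the TPM scale. On the count scale brain lay below liver by TMM (log2 difference -1.88, SE 0.25, edgeR adjusted p = 2.48e-05, where 82.2% of genes differed) and by library totals (-0.70), whereas log2(TPM + 1) gave 0.05 (limma adjusted p = 0.844), so no order of brain and liver was stable to scaling.

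Ucp3 was highest in BAT, at 64.2, 47.0 and 45.9 TPM, and next in IAT, at 51.7, 25.6 and 21.6 TPM. The depots overlapped through IAT WT replicate 1, the highest IAT library, yet BAT exceeded IAT in the fit (log2 difference 1.10, SE 0.30, edgeR adjusted p = 0.0115). Muscle markers summed to 1950, 6860 and 81.2 TPM in IAT WT replicates 1 to 3, and brown adipocyte markers to 775, 596 and 287 TPM. Ucp3 ran in the order of the brown adipocyte sums there, which the white adipocyte and mammary epithelium sums shared. In KO IAT, replicate 1 was lowest in brown adipocyte markers, at 226 TPM, and highest in Ucp3, at 23.9 TPM. The part of any of these cell types in its level was not tested. Brain held 2.48 to 3.32 TPM, 4.32 log2 units below IAT (SE 0.37, edgeR adjusted p = 2.82e-06). No count of Ucp3 fell in any of the 6 liver libraries. Against a limit of 3 counts over the WT liver group, Ucp3 was at least 859-fold higher in BAT with TMM-scaled library sizes and at least 1487-fold higher with library totals, and this limit covers counting error only.

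The composition of the family in each library followed from these levels. Ucp1 made up 95.6% of the summed TPM of the 3 genes in WT BAT (SD 0.94, n = 3). Ucp2 made up 87.7% in IAT (SD 9.26), 92.3% in brain (SD 1.20) and 99.95% in liver (SD 0.08). Ucp3 reached its largest share in IAT, 12.1% (SD 8.99), and that share ran from 5.46% to 22.4% between WT libraries.

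**Figure D2:**
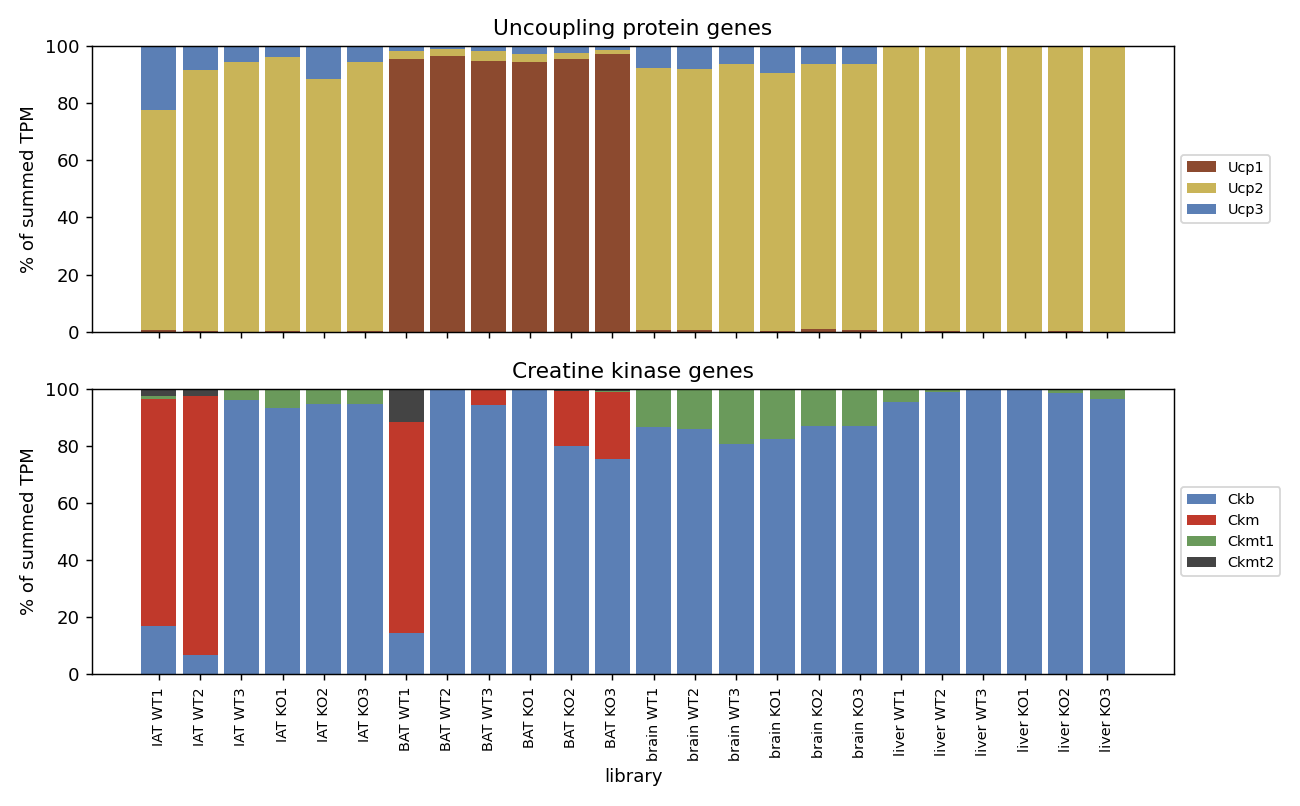
Share of each gene in the summed TPM of the uncoupling protein genes (upper panel) and of the creatine kinase genes (lower panel), with 1 stacked bar per library and libraries named by tissue, genotype and replicate. BAT is almost filled by Ucp1 and the other tissues by Ucp2, while Ckm takes 79.3% and 90.5% of the creatine kinase bar in IAT WT replicates 1 and 2 and 73.8% in BAT WT replicate 1.

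To set beside these tissue patterns, windows of 250 bases before a start of transcription were read from RefSeq's promoter entries (GRCm38.p6), which covered 9 of the 10 genes. Positions count back from the start that each entry uses, and for Ucp2 and Ckmt1 the window runs a few bases past the gene start given here. The 3 uncoupling protein genes are printed because members of 1 family were expressed so differently, and Ckb and Ckmt1 (the first of its 2 entries) because both were highest in brain. Each is written 5′ to 3′ on the strand of its gene. Capitals mark matches, on either strand, to AGGTCA, the half-site of many nuclear receptors, to the TATA box core TATAAA, to the GC box core GGGCGG or to the CCAAT box. The cAMP response half-site TGACGT was searched as well. No match overlapped another in these windows.
Ucp1, chr8:83290098-83290347, plus strand: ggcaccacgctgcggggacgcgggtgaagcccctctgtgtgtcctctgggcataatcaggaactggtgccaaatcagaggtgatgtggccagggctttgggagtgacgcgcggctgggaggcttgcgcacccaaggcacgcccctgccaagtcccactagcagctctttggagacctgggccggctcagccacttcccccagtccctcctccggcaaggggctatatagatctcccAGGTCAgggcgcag
Ucp3, chr7:100472741-100472990, plus strand: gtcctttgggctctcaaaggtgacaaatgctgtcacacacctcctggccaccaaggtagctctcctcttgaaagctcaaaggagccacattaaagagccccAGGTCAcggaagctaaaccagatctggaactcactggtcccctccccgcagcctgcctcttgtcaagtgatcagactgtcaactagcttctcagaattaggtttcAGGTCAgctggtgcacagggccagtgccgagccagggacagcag
Ucp2, chr7:100493108-100493357, plus strand: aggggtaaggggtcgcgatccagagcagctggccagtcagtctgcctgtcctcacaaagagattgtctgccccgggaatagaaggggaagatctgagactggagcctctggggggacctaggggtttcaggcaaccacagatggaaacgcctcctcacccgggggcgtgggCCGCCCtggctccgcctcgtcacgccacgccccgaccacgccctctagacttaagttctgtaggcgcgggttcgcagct
Ckb, chr12:111672339-111672588, minus strand: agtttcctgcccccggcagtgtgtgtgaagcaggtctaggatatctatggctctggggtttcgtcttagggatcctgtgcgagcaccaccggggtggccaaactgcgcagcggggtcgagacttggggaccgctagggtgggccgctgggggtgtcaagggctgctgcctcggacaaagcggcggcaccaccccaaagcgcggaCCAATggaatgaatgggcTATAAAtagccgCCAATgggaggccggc
Ckmt1, chr2:121357526-121357775, plus strand: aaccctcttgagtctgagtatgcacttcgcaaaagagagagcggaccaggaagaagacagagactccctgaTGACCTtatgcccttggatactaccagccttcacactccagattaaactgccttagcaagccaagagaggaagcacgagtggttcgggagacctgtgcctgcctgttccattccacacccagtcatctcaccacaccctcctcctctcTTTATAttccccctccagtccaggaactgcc
AGGTCA occurred once before Ucp1, at base -14, at -149 and -44 before Ucp3 and, on the opposite strand, at -179 before Ckmt1. It was not found before Ucp2 or Ckb. It is present in 14.02% of the 32851 promoter windows of this length in the genome. TATAAA occurred at -28 before Ckb and, on the opposite strand, at -31 before Ckmt1, against 12.4% of all windows. Ucp2 carried GGGCGG at -79 on the opposite strand (32.7% of windows), and Ckb carried CCAAT at -46 and -16 (33.9%). The Ucp2 window held 16 CpG dinucleotides and the Ucp3 window 3, where the median window held 6. TGACGT, present in 6.47% of windows, was in none of the 5. A match of letters is not a measured binding site, and binding was not measured in these samples.

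Of the creatine kinases, Ckb and Ckmt1 were highest in brain. So were 59.3% of all genes with a mean of at least 1 TPM in some tissue, by mean TPM. Ckb (gene 12709, chromosome 12, 111669355 to 111672338, minus strand), the cytosolic brain-type kinase, ranked 46th of all genes in WT brain. Its brain levels were 1780, 1917 and 1314 TPM, against 51.5, 69.2 and 50.7 TPM in BAT, 37.4, 49.99 and 51.3 TPM in IAT and 2.47, 5.22 and 5.84 TPM in liver. Brain exceeded BAT by 3.69 log2 units (SE 0.27, edgeR adjusted p = 1.32e-07), and IAT exceeded liver by 2.20 (SE 0.28, edgeR adjusted p = 2.66e-05, where 69.7% of genes differed). BAT and IAT overlapped, and their difference of 0.73 (SE 0.25, edgeR adjusted p = 0.0250) was lost without IAT WT replicate 1 (0.59, edgeR adjusted p = 0.0736), without BAT WT replicate 2 (0.56, edgeR adjusted p = 0.106) and with library totals (0.47, edgeR adjusted p = 0.147). Its adjusted p over 22 alternatives ran from 0.00719 to 0.375.

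Ckmt1 (gene 12716, chromosome 2, 121357773 to 121363737, plus strand), the ubiquitous mitochondrial kinase, was mainly a brain transcript among these 4 tissues, at 278, 319 and 313 TPM. Its annotated span overlaps Strc, and no source used here says whether reads were counted by strand. In IAT it stood at 2.12, 2.02 and 2.10 TPM, a narrow range that did not follow the muscle markers. Brain exceeded IAT by 6.51 log2 units (SE 0.20, edgeR adjusted p = 2.72e-10, where 80% of genes differed). Liver held 3 counts over its WT libraries and BAT 1 count, so neither level was resolved from the limit of 3 counts. Ckb outnumbered Ckmt1 by 4.20 to 6.40 times in TPM in WT brain and by 17.6 to 24.7 times in WT IAT.

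Ckmt2 (gene 76722, chromosome 13, 91853386 to 91876923, minus strand), the sarcomeric mitochondrial kinase, appeared where muscle transcripts did. It stood at 5.98 and 18.3 TPM in IAT WT replicates 1 and 2 and at 42.4 TPM in BAT WT replicate 1. The other 9 fat libraries held between 0 and 0.69 TPM. The muscle kinase Ckm stood at 174, 672 and 265 TPM in those 3 libraries and at 0 to 17.5 TPM in the other 9. Ckmt2 was 3.43% and 2.73% of Ckm in the 2 IAT libraries, 16.0% in BAT WT replicate 1, and 4.29% and 3.94% in BAT KO replicates 2 and 3. Among all genes over the 24 libraries, the 3 closest to Ckmt2 in log2(TPM + 1) were Myot, Lmod2 and Myh1 (Pearson r 0.991, 0.989 and 0.986, a description over libraries that share tissues). BAT WT replicate 1 alone placed BAT above IAT, since without it the log2 difference went from 1.24 to -9.45. In KO IAT the gene had 0 counts in 3 of 3 libraries and in WT IAT 331 counts, and it did not pass the filter on low counts there. The part of muscle tissue in this contrast was not tested beyond these values.

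**Figure D3:**
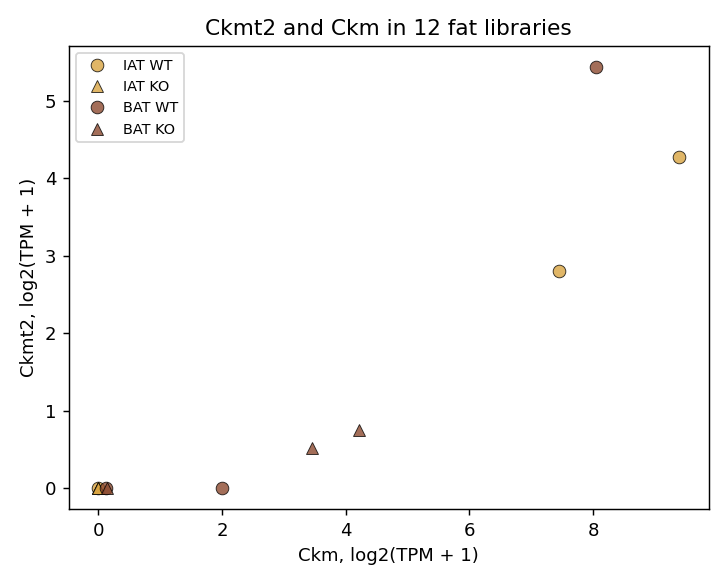
Ckmt2 against the muscle kinase Ckm, both as log2(TPM + 1), with 1 point per fat library, circles for WT, triangles for KO and colours for the depot. The 3 libraries with Ckm at 174 TPM or more are the 3 with Ckmt2 at 5.98 TPM or more.

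The creatine synthesis genes split between organs. Gatm (gene 67092, chromosome 2, 122594473 to 122611277, minus strand), which catalyses the first step, was highest in brain, at 98.1, 131 and 78.5 TPM, then in IAT, at 6.75, 21.0 and 17.4 TPM, in liver, at 3.55, 5.58 and 5.15 TPM, and in BAT, at 2.56, 1.22 and 1.35 TPM. Brain exceeded IAT by 2.02 log2 units (SE 0.37, edgeR adjusted p = 0.000370) and liver exceeded BAT by 2.22 (SE 0.45, edgeR adjusted p = 0.00103, where 65.7% of genes differed), or by 1.44 with library totals and 1.10 on log2(TPM + 1). The difference of 0.49 between IAT and liver (SE 0.38, edgeR adjusted p = 0.272) passed without IAT WT replicate 1 (0.77, edgeR adjusted p = 0.0283) and with library totals (1.55, edgeR adjusted p = 0.00339), and its adjusted p over 22 alternatives ran from 0.00339 to 0.695.

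Gamt (gene 14431, chromosome 10, 80258151 to 80261025, minus strand), which catalyses the second step, was highest in liver, at 415, 432 and 323 TPM. IAT followed at 33.4, 36.4 and 42.0 TPM, brain at 27.7, 34.5 and 20.4 TPM and BAT at 11.5, 11.2 and 13.3 TPM. Liver exceeded IAT by 4.54 log2 units (SE 0.20, edgeR adjusted p = 6.49e-09), and IAT exceeded brain by 1.21 (SE 0.19, edgeR adjusted p = 0.000122), or by 0.45 on log2(TPM + 1), although their TPM ranges overlapped. Brain and BAT did not overlap in TPM, yet on counts their difference was 0.01 (SE 0.21, edgeR adjusted p = 0.957), went to -0.13 with upper-quartile factors and to 1.10 on log2(TPM + 1) (limma adjusted p = 0.000102), so it depended on the scale. The 2 steps were weighted in opposite ways: Gamt exceeded Gatm by 62.7 to 117 times in TPM in the WT livers, and Gatm exceeded Gamt by 3.55 to 3.85 times in the WT brains. KO libraries gave 63.6 to 102 times in liver and 3.24 to 5.13 times in brain.

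Slc6a8 (gene 102857, X chromosome, 73673133 to 73682502), the creatine importer, had the tissue order of Ckb by mean TPM, with 63.0, 67.2 and 60.3 TPM in WT brain. It stood at 12.8, 9.69 and 10.9 TPM in BAT, 8.99, 13.98 and 9.15 TPM in IAT and 1.28, 2.15 and 1.83 TPM in liver. Brain exceeded BAT by 1.33 log2 units (SE 0.18, edgeR adjusted p = 3.59e-05), or by 2.42 on log2(TPM + 1). IAT exceeded liver by 1.43 (SE 0.20, edgeR adjusted p = 6.18e-05), or by 2.48 with library totals. The 2 fat depots overlapped, and their difference of 0.49 (SE 0.18, edgeR adjusted p = 0.0389) held in 11 of 22 alternative analyses. It fell to 0.41 with upper-quartile factors, to 0.23 with library totals and to 0.07 on log2(TPM + 1) (limma adjusted p = 0.762). It was also lost without IAT WT replicate 1 or 3, BAT WT replicate 1 or 3, brain WT replicate 1 or 3 or liver WT replicate 3 (0.37 to 0.51, edgeR adjusted p = 0.0506 to 0.129).

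Alpl (gene 11647, chromosome 4, 137741731 to 137796384, minus strand) varied least between tissues, with a ratio of 2.37 between its highest and lowest mean TPM. Liver held 12.1, 16.6 and 14.1 TPM, brain 11.9, 7.82 and 8.36 TPM, BAT 6.82, 8.57 and 8.38 TPM and IAT 6.0, 5.97 and 6.02 TPM. Liver exceeded brain by 2.53 log2 units with TMM factors (SE 0.16, edgeR adjusted p = 3.63e-08), by 1.35 with library totals and by 0.57 on log2(TPM + 1). BAT exceeded IAT by 0.87 (SE 0.16, edgeR adjusted p = 0.000757), which did not pass on log2(TPM + 1) (0.35, limma adjusted p = 0.0708). Brain and BAT overlapped in TPM, and the sign of brain minus BAT was -0.99 by TMM (SE 0.16, edgeR adjusted p = 0.000131) and 0.20 on log2(TPM + 1) (limma adjusted p = 0.241).

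By Pearson correlation of log2(TPM + 1) over the 24 libraries, which share tissues and so repeat tissue differences, the closest of 14650 genes were Cpt1b, Cox5a and Cox7b for Ucp1 (r 0.993, 0.991 and 0.991) and Sh2b2, Slc25a35 and Klhdc7a for Ucp3 (r 0.994, 0.992 and 0.987). For Ucp2 they were Tln1, Rps9 and Samhd1 (r 0.992, 0.984 and 0.982). Ckb was closest to Car11, Wdr13 and Atp6v1b2 (r 0.995, 0.994 and 0.994), Ckmt1 to Ncs1, Inpp5j and Kif5c (r 0.998 each), and Slc6a8 to Tom1l2, Clasp2 and Pard6a (r 0.994, 0.992 and 0.992). Gatm was closest to Gabra3, Ap2m1 and Etv5 (r 0.982 each), Gamt to Urah, Aldh3a2 and Tspan31 (r 0.984, 0.984 and 0.983), and Alpl, with its shallow pattern, to Slc47a1, Sar1b and Decr2 (r 0.917, 0.899 and 0.886). These are likenesses of pattern over 4 tissues only.

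The second comparison asked how the 10 genes differed between KO and WT mice within each tissue. No change passed the edgeR test in any tissue. The estimate with the smallest p was a higher level of Ucp3 in KO BAT. In IAT 7 of the 8 genes tested had lower estimates in KO, while 51.7% of all genes had higher estimates there. Among the 7, Ckb, Slc6a8 and Alpl had every KO library below the WT libraries, as did 9.65% of all genes in IAT. Brain had estimates of both signs, and in liver the 6 estimates lay between -0.05 and 0.23.

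By tissue, edgeR called 0 of 8 genes tested in IAT (0% of 14097 genes), 0 of 8 in BAT (0.54% of 12588), 0 of 8 in brain (0.0487% of 14385) and 0 of 6 in liver (1.11% of 12331). At an unadjusted p under 0.05 there were 2 genes in IAT (15.8% of all genes), 1 in BAT (18.5%), 0 in brain (6.58%) and 0 in liver (16.1%). DESeq2 called 0 in IAT (7% of all genes), 1 in BAT (3.72%), 0 in brain (0.39%) and 0 in liver (3.26%), and limma-voom called 0 in each tissue (0.957% of all genes in liver, 0.0139% in brain, 0.437% in BAT and 0.0497% in IAT). A fit of all 24 libraries called 1 gene in IAT (15.9% of all genes) and 0 in liver (0.606%), 0 in brain (0.0618%) and 0 in BAT (1.07%). The median log2 fold change of the genes tested was -0.48 in IAT (0.02 over all genes) and -0.04 in BAT (-0.01 over all genes). It was 0.13 in brain and 0.02 in liver, where the median over all genes was -0.00 in both. The genes left out by the filter on low counts were Ucp1 and Ckmt2 in IAT and brain, Ckmt1 and Ckmt2 in BAT, and Ucp1, Ucp3, Ckmt1 and Ckmt2 in liver.

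**Figure D4:**
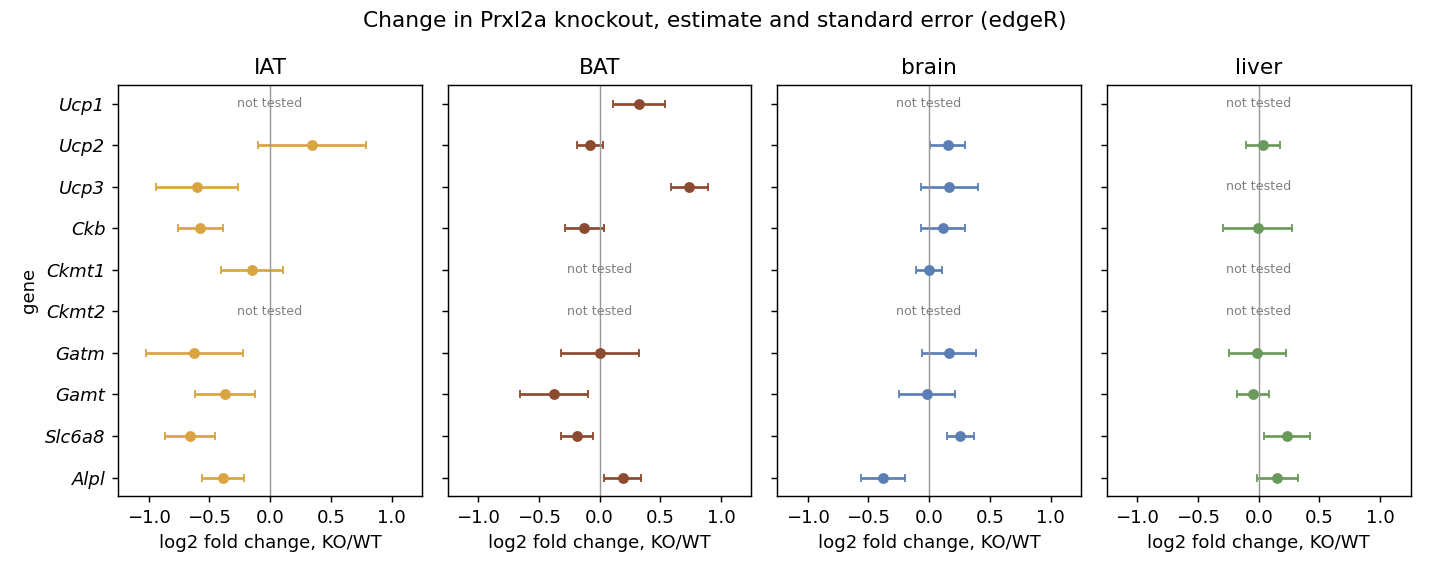
Log2 fold change of KO over WT for each gene and tissue, with bars of 1 standard error from edgeR on 3 WT and 3 KO libraries. Estimates in IAT lie mostly below 0, those in liver lie near 0, and Ucp3 in BAT has the highest estimate, at 0.74.

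In BAT, Ucp3 stood at 64.2, 47.0 and 45.9 TPM in WT and at 88.9, 88.0 and 67.3 TPM in KO. Every KO library exceeded every WT library, as did 14.3% of all genes in this tissue. The log2 fold change was 0.74 (SE 0.15, edgeR adjusted p = 0.0848), which did not pass, while DESeq2 gave an adjusted p of 0.000526 for 0.74. Over 15 alternatives the adjusted p ran from 0.000526 to 0.244. The WT library nearest to the KO range was WT replicate 1, the muscle-rich one, and without it the estimate was 0.90 (edgeR adjusted p = 0.0579). Its neighbour Ucp2 had 105, 87.1 and 106 TPM in WT and 98.9, 83.9 and 79.7 TPM in KO, with a log2 fold change of -0.08 (SE 0.10, edgeR adjusted p = 0.711).

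Ucp1 in BAT stood at 3679, 3788 and 2710 TPM in WT and at 3108, 3563 and 5124 TPM in KO. The groups overlapped, and 1 KO library, replicate 3, lay above the WT range. The log2 fold change was 0.32 (SE 0.22, edgeR adjusted p = 0.443) and ran from 0.07 to 0.48 when single libraries were left out, with the lowest value without KO replicate 3. That library also held 183 TPM of Dio2, the deiodinase that activates thyroid hormone in brown fat, against 9.89 to 31.6 TPM in the other 5 BAT libraries. Dio2 is 1 of the 8 brown adipocyte markers, which summed to 21288 TPM there and to 17610 to 21284 TPM in WT BAT. Cidea and Cox7a1 of the same list, at 4454 and 5972 TPM there, lay within the range of the other BAT libraries. Ucp1 kept 94.3% to 97.2% of the summed uncoupling protein TPM in KO BAT.

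Of the creatine genes in BAT, Gamt had the lowest estimate, at 11.5, 11.2 and 13.3 TPM in WT and 12.2, 8.36 and 5.26 TPM in KO (log2 fold change -0.38, SE 0.28, edgeR adjusted p = 0.490). Slc6a8 had -0.19 (SE 0.13), Ckb -0.12 (SE 0.16), Gatm 0.01 (SE 0.32) and Alpl 0.19 (SE 0.15), and KO and WT libraries overlapped for each of them. The sign of Ckb and of Gatm changed when single libraries were left out.

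In IAT, Slc6a8 stood at 8.99, 13.98 and 9.15 TPM in WT and at 7.17, 7.21 and 7.05 TPM in KO. The KO libraries were almost level with each other and below the WT range, as were 9.65% of all genes in IAT. The log2 fold change was -0.66 (SE 0.21, edgeR adjusted p = 0.258), which did not pass, and the fit of all 24 libraries gave -0.67 (edgeR adjusted p = 0.0130). Over 17 alternatives the adjusted p ran from 0.0130 to 0.854. WT replicate 2, the library richest in muscle markers, was the highest, and without it the estimate was -0.44. Without both muscle-rich WT libraries it was -0.50, and without both lymphocyte-rich KO libraries -0.53. Each such removal leaves 1 library in that group, which is assumed to vary like the other group.

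Ckb in IAT had 37.4, 49.99 and 51.3 TPM in WT and 31.3, 35.2 and 31.2 TPM in KO, again without overlap. Its log2 fold change was -0.57 (SE 0.19, edgeR adjusted p = 0.260), with -0.79 when both muscle-rich WT libraries were left out and -0.34 when both lymphocyte-rich KO libraries were. Macrophage markers summed to 2260, 6286 and 8044 TPM and stroma markers to 2043, 3556 and 3453 TPM in WT replicates 1 to 3, so replicate 1 was lowest in both and in Ckb and Gatm. Both sums had lower medians in KO, at 2277 and 1753 TPM, and their part in the IAT differences was not tested. Alpl in IAT had 6.0, 5.97 and 6.02 TPM in WT and 5.17, 4.81 and 4.6 TPM in KO. Its WT libraries were nearly identical, its groups did not overlap, and its log2 fold change was -0.39 (SE 0.17, edgeR adjusted p = 0.335). These 3 genes, for the import of creatine, its phosphorylation and the hydrolysis of phosphocreatine, are set together by their separate groups. None of them passed in the edgeR fit of IAT alone. Lower estimates in KO were not particular to them, since Gatm (-0.62), Ucp3 (-0.60), Gamt and Ckmt1 had them too.

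The synthesis genes in IAT overlapped between genotypes. Gatm stood at 6.75, 21.0 and 17.4 TPM in WT and at 10.7, 10.2 and 9.95 TPM in KO (log2 fold change -0.62, SE 0.40, edgeR adjusted p = 0.448). The WT spread exceeded the difference, and WT replicate 1 lay below the KO range while the other two lay above it. Without WT replicate 1 the estimate was -0.98. Gamt stood at 33.4, 36.4 and 42.0 TPM in WT and at 24.5, 36.7 and 28.3 TPM in KO (-0.37, SE 0.24, edgeR adjusted p = 0.462), and Ckmt1 at 2.12, 2.02 and 2.10 TPM in WT and 2.22, 1.96 and 1.73 TPM in KO (-0.15, SE 0.25, edgeR adjusted p = 0.774).

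Ucp2 was the 1 gene of the set with a higher estimate in KO IAT. It stood at 178, 273 and 373 TPM in WT and at 575, 171 and 382 TPM in KO, with a log2 fold change of 0.34 (SE 0.44, edgeR adjusted p = 0.697). The 2 high KO libraries, replicates 1 and 3, were the lymphocyte-rich ones, with lymphocyte markers summing to 2432 and 1211 TPM. Without KO replicate 1 the estimate was -0.07, and without both, with 1 KO library left, it was -0.64. WT replicate 3, at 373 TPM of Ucp2, had 11.3 TPM of lymphocyte markers. Macrophage markers summed to 2260, 6286 and 8044 TPM in WT replicates 1 to 3 and to 3100, 1466 and 2277 TPM in KO. Ucp2 ran in the order of these macrophage sums within each genotype, and the part of either cell type was not tested. Ucp3 in IAT stood at 51.7, 25.6 and 21.6 TPM in WT and at 23.9, 22.5 and 22.5 TPM in KO (-0.60, SE 0.34, edgeR adjusted p = 0.401). Its estimate rested on WT replicate 1, since it was -0.12 without that library.

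**Figure D5:**
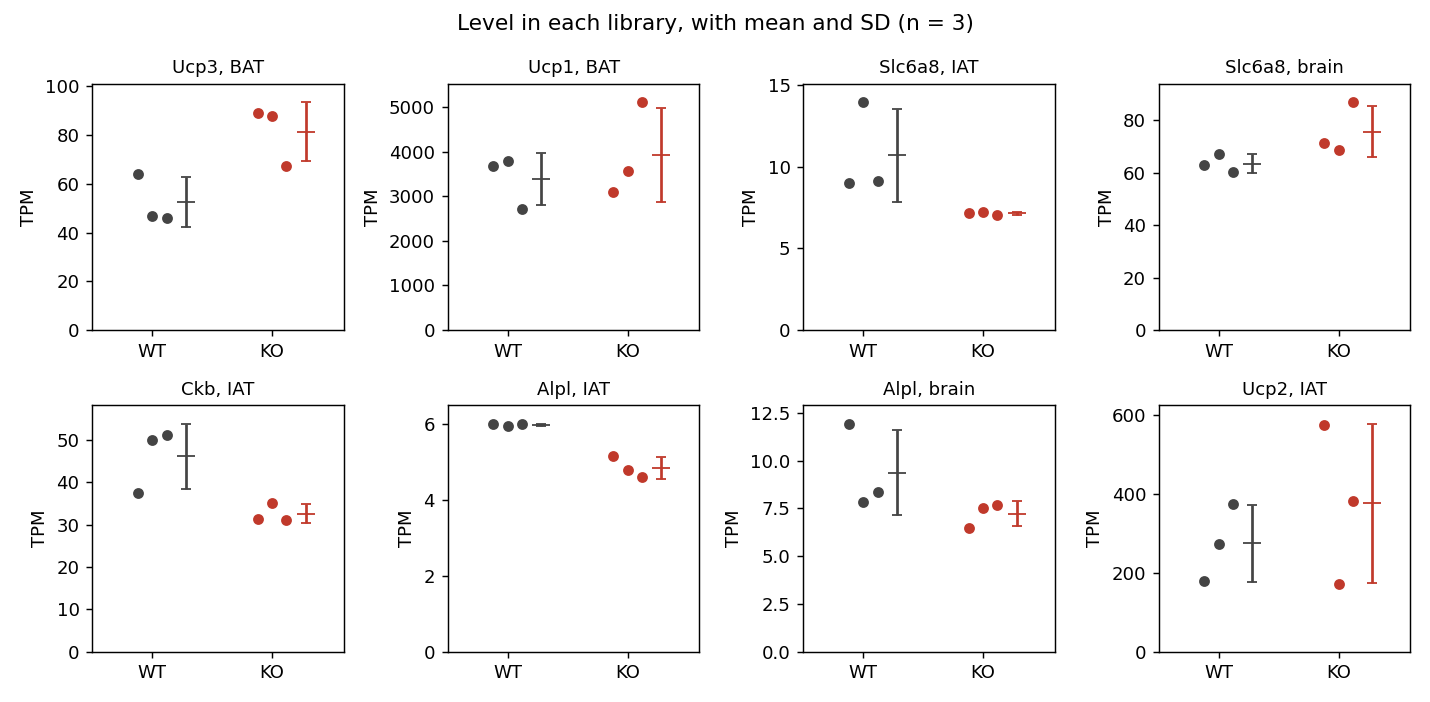
TPM in each library for 8 pairs of gene and tissue, with 1 point per library and, to the right of each group, the mean with bars of 1 SD (n = 3). KO and WT points are separate for Ucp3 in BAT, Slc6a8 in IAT and brain, Ckb in IAT, and Alpl in IAT and brain, and they overlap for Ucp1 in BAT and Ucp2 in IAT.

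In brain, Slc6a8 stood at 63.0, 67.2 and 60.3 TPM in WT and at 71.5, 68.6 and 87.0 TPM in KO. All KO libraries exceeded the WT libraries, as did 6.53% of all genes, and the log2 fold change was 0.26 (SE 0.11, edgeR adjusted p = 0.749). Alpl stood at 11.9, 7.82 and 8.36 TPM in WT and at 6.47, 7.54 and 7.66 TPM in KO, where 5.99% of all genes likewise had every KO library below the WT range (-0.38, SE 0.18, edgeR adjusted p = 0.752). The lead brain genes differed by less than their spread: Ckb had 1780, 1917 and 1314 TPM in WT and 1559, 2110 and 1848 TPM in KO (0.12, SE 0.18, edgeR adjusted p = 0.916), and Ckmt1 had 278, 319 and 313 TPM in WT and 336, 315 and 274 TPM in KO (0.00, SE 0.11, edgeR adjusted p = 0.998). Gatm had an estimate of 0.17 (SE 0.22), Ucp3 of 0.17 (SE 0.24), Ucp2 of 0.15 (SE 0.14) and Gamt of -0.02 (SE 0.23), all with overlapping groups. Within each genotype, Slc6a8 and Gatm ran in the order of the oligodendrocyte marker sums, which overlapped between genotypes. Striatum and choroid plexus sums varied as well, and the part of such sums in the brain differences was not tested.

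In liver, Gamt, the gene with the highest level there, had 415, 432 and 323 TPM in WT and 382, 315 and 361 TPM in KO (log2 fold change -0.05, SE 0.13, edgeR adjusted p = 0.906). Ucp2 had 25.9, 40.9 and 34.7 TPM in WT and 29.1, 33.1 and 34.9 TPM in KO (0.04, SE 0.14, edgeR adjusted p = 0.930). The largest estimate was that of Slc6a8, at 0.23 (SE 0.19, edgeR adjusted p = 0.591), from 1.28, 2.15 and 1.83 TPM in WT and 1.73, 2.08 and 2.0 TPM in KO. Alpl was estimated at 0.15 (SE 0.17), Gatm at -0.01 (SE 0.23) and Ckb at -0.01 (SE 0.29), and none of the 6 genes had separate groups, where 21.6% of all genes did.

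Whether the KO difference varied with tissue was tested in 1 fit of the 24 libraries. The edgeR interaction test called 0 of the 10 genes (0.421% of 16169 genes), with 3 at an unadjusted p under 0.05, where 18.9% of all genes had one. These were Slc6a8 (edgeR adjusted p = 0.0986), Ucp3 (adjusted p = 0.163) and Alpl (adjusted p = 0.242). DESeq2 called Slc6a8 (adjusted p = 0.00787) and did not call Ucp3 (adjusted p = 0.0533) or Alpl (adjusted p = 0.135), in a test that called 7.58% of all genes. Without IAT KO replicate 2, edgeR called Slc6a8 too (adjusted p = 0.0223), and without each other single library its adjusted p ran from 0.0711 to 0.215. Over these removals the interaction test called 15 to 2971 of all genes, against 68 in the main fit. Leaving out IAT KO replicate 2 keeps KO replicates 1 and 3, the lymphocyte-rich ones. It also took the KO against WT calls in IAT from 0 to 1760 of all genes.

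The other genes of the pathways were taken from 6 lists, of which 59 of 61 genes were in the table. These were further mitochondrial carriers, other phosphagen and adenylate kinases, and genes of calcium cycling and other heat-producing cycles. The rest were suppliers of arginine, glycine and methyl groups, transcription factors acting on Ucp1, and relatives of Alpl together with genes of phosphate metabolism. In WT mice 11 of the 13 genes of arginine, glycine and methyl supply had their highest mean TPM in liver, as Gamt did, beside 8.89% of all genes with a mean of at least 1 TPM in some tissue. Mat1a, which makes the methyl donor, averaged 2431 TPM there and 0.01 to 0.09 TPM elsewhere, and Arg1, the liver arginase, 2184 TPM against 0.06 to 5.31 TPM. The other two genes were Arg2, highest in IAT, and Mat2a, highest in brain. The carriers Slc25a14 and Slc25a27, also named UCP5 and UCP4, were highest in brain, at means of 86.2 and 42.2 TPM, against 1.89 to 4.83 and 0.98 to 3.52 TPM in the other tissues. By the same measure 59.3% of all genes were highest in brain. Phospho1, a phosphatase of phosphocholine, averaged 127 TPM in BAT and 12.2 TPM in IAT.

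For KO against WT, edgeR called 0 of 49 tested list genes in IAT, 0 of 48 in BAT, 0 of 49 in brain and 0 of 43 in liver. At an unadjusted p under 0.05 there were 13 in IAT (15.8% of all genes), 7 in BAT (18.5%), 8 in brain (6.58%) and 6 in liver (16.1%). DESeq2 called 7 in IAT (7% of all genes), 3 in BAT (3.72%), 0 in brain (0.39%) and 1 in liver (3.26%). Fitting all 24 libraries together called 12 in IAT (15.9% of all genes), 1 in BAT (1.07%) and 0 in brain and liver, and limma-voom called 0 in each tissue. Higher estimates were 18 of 49 in IAT (51.7% of all genes), 21 of 48 in BAT (49.0%), 22 of 49 in brain (49.6%) and 13 of 43 in liver (49.0%).

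Slc25a10, the mitochondrial dicarboxylate carrier, had the smallest p of its list in 3 tissues, with every KO library below the WT libraries each time, as for 11.3% of all genes in BAT, 9.65% in IAT and 5.99% in brain. In BAT it stood at 34.1, 15.6 and 29.9 TPM in WT and at 9.93, 10.8 and 5.34 TPM in KO (log2 fold change -1.51, SE 0.33, edgeR adjusted p = 0.0946, DESeq2 adjusted p = 1.51e-05). In IAT the estimate was -0.86 (SE 0.28, edgeR adjusted p = 0.260) and in brain -0.30 (SE 0.13, edgeR adjusted p = 0.749). Cebpb, a transcription factor of adipocytes, stood at 64.1, 49.9 and 32.2 TPM in WT BAT and at 76.4, 210 and 202 TPM in KO BAT (1.86, SE 0.41, edgeR adjusted p = 0.0968, DESeq2 adjusted p = 0.0196). In IAT, Phospho1 stood at 15.2, 8.58 and 12.7 TPM in WT and at 3.57, 5.05 and 4.15 TPM in KO (-1.58, SE 0.31, edgeR adjusted p = 0.211, DESeq2 adjusted p = 0.000652).

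Of the genes with the smallest p of their list in IAT, Ryr1, Ak1 and Ebf2 were highest in WT replicate 2. Arg2, Slc25a10 (371 TPM) and Phospho1 (15.2 TPM) were highest in WT replicate 1. Only WT replicate 3 was muscle-poor there, so a highest value in replicate 1 or 2 does not tell muscle from other sources. Ckm and Ryr1 in BAT were highest in the muscle-rich WT library. In IAT, Ryr1, the calcium release channel of muscle, stood at 1.24, 3.69 and 0.63 TPM in WT and at 0.35, 0.14 and 0.29 TPM in KO (-3.01, SE 0.72, edgeR adjusted p = 0.224, DESeq2 adjusted p = 0.000625). Ckm and Ryr1 in BAT stood at 265 and 2.32 TPM in the muscle-rich WT replicate 1, with groups that overlapped. Ak1, a cytosolic adenylate kinase, stood at 12.3, 26.9 and 15.0 TPM in WT IAT and at 4.96, 7.78 and 6.16 TPM in KO (-1.58, SE 0.36, edgeR adjusted p = 0.224, DESeq2 adjusted p = 0.00325). It was highest in WT replicate 2, the richest in muscle markers, while its muscle-poor WT replicate 3 exceeded the muscle-rich replicate 1. The part of muscle tissue in these IAT differences was not tested. Arg2, a mitochondrial arginase, stood at 34.7, 24.5 and 21.6 TPM in WT IAT and at 13.03, 14.4 and 16.1 TPM in KO (-0.97, SE 0.23, edgeR adjusted p = 0.224, DESeq2 adjusted p = 0.0122). Ebf2, a brown fat factor, stood at 13.2, 13.5 and 10.4 TPM in WT IAT and at 5.6, 9.5 and 8.78 TPM in KO (-0.70, SE 0.26, edgeR adjusted p = 0.289).

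In BAT, Mat2a, which makes the methyl donor outside liver, had an estimate of 0.39 (SE 0.11, edgeR adjusted p = 0.158, DESeq2 adjusted p = 0.0486) and Enpp1 one of -0.18 (SE 0.29, edgeR adjusted p = 0.764). In brain, Ppargc1a, a coactivator of mitochondrial genes, stood at 21.5, 18.4 and 19.9 TPM in WT and at 25.6, 23.0 and 24.02 TPM in KO (0.28, SE 0.08, edgeR adjusted p = 0.718). There, Atp2a3 had -0.33 (SE 0.17), Shmt2 -0.24 (SE 0.11), Ak3 0.20 (SE 0.09) and Enpp1 0.10 (SE 0.18). In liver, Atp2a2, the calcium pump of the endoplasmic reticulum, stood at 64.6, 70.3 and 83.0 TPM in WT and at 88.6, 104 and 89.1 TPM in KO (0.46, SE 0.12, edgeR adjusted p = 0.107, DESeq2 adjusted p = 0.0140). Pparg in liver had -0.51 (SE 0.13, edgeR adjusted p = 0.112), Slc25a30 -0.51 (SE 0.22), Mat1a -0.25 (SE 0.15), Ak4 0.13 (SE 0.12) and Enpp1 -0.05 (SE 0.09).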

How the data were processed

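The authors deposited 1 table for the 24 libraries, which holds an expected count per gene and library, estimated from the reads by RSEM, per the file headers and the submitters' processing notes. The same deposited table gives TPM values, which scale by transcript length and library, per the file headers. Per the submitters' processing notes, the build was GRCm38.p6 and the tools were RSEM 1.3.1, Bowtie2 2.3.4.3 and DESeq2 1.4.5. Filters and strand settings were not given in the sources used here. The table's 48 other per-sample columns stayed unused. For edgeR the expected counts were rounded. KO was tested against WT on the 6 libraries of each tissue with edgeR 4.0.16 in R 4.3.3 (TMM factors, filterByExpr, quasi-likelihood F-test), with p-values adjusted by Benjamini-Hochberg over all genes tested and called under 0.05. The 12 WT libraries were tested in 1 fit on 3 degrees of freedom and by pairs of tissues, and the interaction in 1 fit of 24 libraries. Standard errors come from the F statistic. Replicates are separate samples of a group of 3 mice, so p-values measure the spread between them.

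The 10 genes and the 6 lists were chosen with earlier results of these data known. All 10 genes are named, with the 1 gene of smallest p per list and tissue where none was called, the 3 genes of most similar pattern over the libraries (mean TPM of at least 1), and marker genes where a result turns on them. Other genes named for WT levels or markers were chosen after their values were seen. Alternatives were RLE and upper-quartile factors, library totals, no filter, 1 CPM in 3 libraries, DESeq2 1.42.0, limma-voom, limma-trend with a pseudocount of 1 or 0.1 TPM (limma 3.58.1), all 24 libraries, the replicate block, and omitting single libraries. The joint removal of muscle-rich or lymphocyte-rich libraries was chosen after seeing the data. The fits were tested on simulated data. In no comparison did every pair of same-numbered libraries deviate together with a correlation over 0.1 (-0.224 to -0.133 between WT and KO in BAT and 0.0263 to 0.332 in brain, for example), so the numbers were not taken as pairs.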

Additional observations from a re-analysis of the deposited data

Results flagged for a closer look

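The KO difference of Slc6a8 took opposite signs in IAT and brain, with no overlap between genotypes in either tissue. This pattern was looked for in every gene of the set and every pair of tissues, so the gene was selected on it. The log2 fold change of Slc6a8 was -0.66 in IAT, where 3 of 3 KO libraries lay below all WT libraries, as for 9.65% of all genes. It was 0.26 in brain, where 3 of 3 KO libraries lay above them, as for 6.53% of all genes. The separation in brain was narrow, with the highest WT library at 67.2 TPM and the lowest KO library at 68.6 TPM. When single libraries were left out, the estimates ran from -0.77 to -0.44 in IAT and from 0.15 to 0.32 in brain. Neither passed by itself in edgeR (adjusted p = 0.258 and 0.749). The test of a difference over the 4 tissues did not pass in edgeR (adjusted p = 0.0986) and passed with DESeq2 (adjusted p = 0.00787), and the difference between these 2 tissues alone was not tested. BAT and liver gave -0.19 and 0.23, with overlapping groups. In brain, Slc6a8 ran in the order of the oligodendrocyte marker sums within each genotype, and their part was not tested.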

How the results depend on the processing

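No gene of the set was called for KO against WT in any tissue, except 1 in IAT with all 24 libraries in 1 fit (Slc6a8) and 1 in BAT with DESeq2 (Ucp3), and 1 was called in the interaction test with DESeq2 and 0 to 1 when single libraries were left out (Slc6a8). Under the replicate block 0 were called in each tissue and 10 among WT tissues, and the count over all genes went from 0 to 0 in IAT, 68 to 1 in BAT, 7 to 4 in brain, 137 to 228 in liver and 68 to 37 in the interaction. Counts over all genes also moved with the tool: to 987 with DESeq2, 7 with limma-voom, 2573 with 24 libraries and 0 to 1760 without single libraries in IAT; to 467 with DESeq2, 29 and 28 on log2(TPM + 1) and log2(TPM + 0.1), 173 with 24 libraries and 2 to 94 in BAT; to 56 with DESeq2, 2 with limma-voom and 1 to 9 in brain; to 402 with DESeq2, 218 without a filter and 58 to 103 in liver; and to 103 with RLE, 1225 with DESeq2 and 15 to 2971 in the interaction. Of the alternative estimates of KO change, 38 changed sign and 426 kept sign and call, none of them called, and the cause was not tested. Leaving out single libraries, the ranges that crossed 0 were -0.072 to 0.65 for Ucp2 in IAT, -0.25 to 0.050 for Ckb and -0.18 to 0.40 for Gatm in BAT, -0.032 to 0.25 for Ckb, -0.070 to 0.077 for Ckmt1 and -0.19 to 0.20 for Gamt in brain, and -0.098 to 0.17 for Ucp2, -0.28 to 0.22 for Ckb, -0.23 to 0.19 for Gatm and -0.17 to 0.048 for Gamt in liver. Ucp2 in IAT gave -0.18 without both muscle-rich WT libraries and -0.64 without both lymphocyte-rich KO libraries, and Gamt 0.037 without the latter. On log2(TPM + 1) and log2(TPM + 0.1), Gatm in BAT gave -0.032 and -0.026 (and -0.0046 with 24 libraries), Gamt in brain 0.063 and 0.065 and Ucp2 in liver -0.041 and -0.042. Ckmt1 in brain gave -0.0043 with 24 libraries, and Ckb in liver gave 0.056 with limma-voom and 0.028 with the replicate block. Among WT differences, 17 changed sign and 605 kept sign and call. Ucp2, brain minus liver, gave 0.053 and 0.055 on the 2 TPM scales and Alpl, brain minus BAT, 0.20 and 0.22. Gamt, brain minus BAT, gave -0.13 with upper-quartile factors, -0.020 with limma-voom and -0.15 to 0.24 without single libraries. Ckmt2, BAT minus IAT, gave -1.43 with limma-voom, -0.16 with the replicate block, -0.55 and -1.57 on the TPM scales and -9.45 to 2.67 without single libraries, and brain minus liver -0.57 with limma-voom. Ucp1, IAT minus brain, gave -3.13 without the 3 muscle-rich libraries, where 1 IAT library with 0 counts is left and the size depends on the fit's handling of 0, and, brain minus liver, -0.076 with limma-voom. Joint removals in IAT leave 1 library in a group, which is assumed to vary like the rest. Group sums of 1 to 23 counts for Ucp1 outside BAT, and of 1 to 4 for Ckmt1 in liver and BAT, limit what can be said of the order of these groups.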
